A study of Mus musculus with 18 samples.

Results

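HSP90 is an abundant molecular chaperone that binds partly folded proteins, among them steroid receptors and protein kinases, and completes their folding in a cycle driven by ATP hydrolysis. Co-chaperones steer this cycle: STIP1 passes substrates on from HSP70, CDC37 brings kinases, and AHSA1 speeds ATP hydrolysis. PTGES3 and FKBP4 act on the mature complex that holds a steroid receptor. Heat-shock factor 1 (HSF1) is the transcription factor that raises chaperone genes in heated mammalian cells, and HSP90 is itself known to bind HSF1 in unstressed cells.

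The transcripts of 10 mouse genes were followed here: the cytosolic HSP90 genes Hsp90aa1 and Hsp90ab1, and the co-chaperone genes Ahsa1, Ahsa2, Chordc1, Stip1, Fkbp4, Cdc37, Ptges3 and St13. The genes were chosen by name, with earlier results of these data known. Each was read from its brightest probe set annotated to that symbol alone. Of the 10 genes, 9 had such a probe set among the 19938 gene symbols of the array, and Hsp90ab1 was not analysed here. RNA of immortalized mouse embryonic fibroblasts (MEF cells, ICR background) was hybridized to 18 Affymetrix Mouse Gene 1.0 ST arrays. All cells had been in contact with an adenovirus for 2 h and then kept in medium for 70 h. The virus carried a scrambled short hairpin RNA (SCR), a hairpin against mouse HSF1 (HSF1-KD) or a hairpin against mouse SSBP1 (SSBP1-KD), the mitochondrial single-stranded DNA-binding protein that the study examined as a partner of HSF1. Each kind of cell was left at 37 °C (Cont) or heated at 42 °C for 1 h (HS), which gave 6 groups of 3 arrays. Every group, SCR included, thus carried an adenovirus and a hairpin, and the labels name 1 virus for each knockdown.

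The deposited log2 signals had array medians of 7.88 to 7.94, and arrays of 1 group correlated at 0.985 or more over all probe sets. The mean log2 signal of Ssbp1 was 9.42 in SCR Cont and 9.20 in SSBP1-KD Cont, a difference that did not pass the test (-0.22, limma, adjusted p = 0.0555). After heat shock it was 9.06 in SCR and 8.65 in SSBP1-KD, which was lower (-0.41, limma, adjusted p = 0.00155). Hsf1 had no probe set annotated to it alone, so its knockdown was not checked on these arrays. Of 10 fibroblast markers, 6 lay above the upper quartile of the arrays (9.62), against 0 of 6 epithelial, 0 of 5 endothelial, 0 of 4 muscle and 1 of 6 leukocyte markers. Array 1 of SSBP1-KD Cont stood apart: its weight, which limma estimates from how closely an array follows its group, was the lowest of the 18 at 0.205. The labels do not say that the arrays of a group came from separate cultures, so p-values measure the spread between these arrays, which may be technical. In bulk RNA, fewer cells that express a gene and less RNA per cell cannot be told apart.

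HSF1 binds heat shock elements, which are inverted repeats of the unit GAA, and the promoters of the members differed in how many such repeats they held. RefSeq promoter windows of assembly GRCm38.p6, from 250 bases before to 50 bases after a start site, were found for 7 of the 10 genes, and Hsp90aa1, Hsp90ab1 and St13 had none. Chordc1 was the 1 member with a 3-unit element (GAANNTTCNNGAA, searched on both strands), a match that 0.603% of all 32851 windows held. Its element ran over 5 alternating units, from position -4 to position 19 counted from the start site (chr9:18292263-18292285, + strand). It is shown first, and then the upstream part of 4 windows that differ in their matches, each with the units of any match in capitals.

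Chordc1 element: GAACGTTCGGGAAAATTCCTGAA

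Chordc1 upstream: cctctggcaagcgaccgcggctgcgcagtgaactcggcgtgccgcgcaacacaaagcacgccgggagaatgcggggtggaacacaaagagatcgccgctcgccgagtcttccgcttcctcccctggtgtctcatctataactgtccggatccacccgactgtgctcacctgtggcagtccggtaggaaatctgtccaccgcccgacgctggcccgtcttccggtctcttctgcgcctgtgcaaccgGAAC

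Fkbp4 upstream: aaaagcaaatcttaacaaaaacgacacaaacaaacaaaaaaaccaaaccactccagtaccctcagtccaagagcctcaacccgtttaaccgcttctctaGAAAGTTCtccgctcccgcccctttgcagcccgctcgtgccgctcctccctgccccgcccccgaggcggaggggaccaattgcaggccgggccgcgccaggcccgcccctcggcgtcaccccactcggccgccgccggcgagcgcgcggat

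Cdc37 upstream: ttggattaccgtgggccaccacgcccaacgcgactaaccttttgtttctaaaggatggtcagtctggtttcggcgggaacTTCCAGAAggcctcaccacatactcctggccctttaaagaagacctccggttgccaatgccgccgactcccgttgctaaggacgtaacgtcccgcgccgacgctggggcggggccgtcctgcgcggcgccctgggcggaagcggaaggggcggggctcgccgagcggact

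Ahsa1 upstream: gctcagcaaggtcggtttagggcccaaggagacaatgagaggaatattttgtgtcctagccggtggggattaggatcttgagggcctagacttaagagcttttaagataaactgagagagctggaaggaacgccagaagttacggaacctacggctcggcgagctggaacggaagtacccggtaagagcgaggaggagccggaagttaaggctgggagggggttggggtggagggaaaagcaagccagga

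These 4 stretches end at the base before the start site (Chordc1, chr9:18292017-18292266, + strand; Fkbp4, chr6:128438657-128438906, - strand; Cdc37, chr9:21149935-21150184, - strand; Ahsa1, chr12:87266478-87266727, + strand). Fkbp4 held a head-to-head pair of units (GAANNTTC) starting at position -151, a form found in 7.86% of all windows. Cdc37 held a tail-to-tail pair (TTCNNGAA) starting at position -170, a form found in 8.52% of all windows. A 3-unit match contains both pair forms, and 15.1% of all windows held a pair of either form. The windows of Ahsa1, Ahsa2, Ptges3 and Stip1 held none of these letters. The CCAAT box lay in 4 of the 7 windows, with 4 copies in Stip1 and 1 each in Ahsa2, Cdc37 and Fkbp4. Over all windows 37.4% held it at least once on either strand. A match describes the letters and is not a measured binding site, and a window without a match says nothing of the factor.

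**Figure D1:**
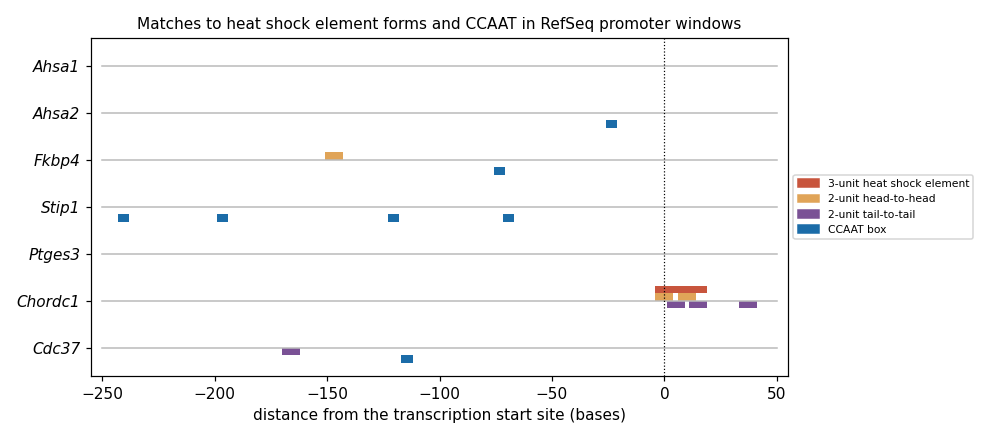
Positions of matches to heat shock element forms and to the CCAAT box in the RefSeq promoter windows of 7 members, in bases from the transcription start site (dotted line). Chordc1 alone has 3-unit matches, which overlap each other across the start site, while Fkbp4 and Cdc37 have 1 pair of units each.

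Heat shock of SCR cells raised 7 of the 9 measured members and lowered none. Hsp90aa1, the stress-inducible cytosolic HSP90, rose most, followed by Ahsa1, the activator of its ATPase, and Fkbp4, a peptidyl-prolyl isomerase of steroid receptor complexes. Over all 19938 genes, 7.63% rose and 8.34% fell at the same threshold (limma, adjusted p under 0.05). The median change of the 9 members was 0.33 on the log2 scale, against -0.01 over all genes.

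The log2 signals of Hsp90aa1 in SCR were 12.82, 12.79 and 12.72 in Cont and 13.61, 13.63 and 13.70 in HS. In HSF1-KD they were 12.91, 12.86 and 12.84 in Cont and 12.94, 12.98 and 12.95 in HS. In SSBP1-KD they were 13.02, 13.07 and 13.08 in Cont and 13.39, 13.41 and 13.42 in HS. No array of any group overlapped the next group in the order SCR HS, SSBP1-KD HS, SSBP1-KD Cont, HSF1-KD HS, HSF1-KD Cont, SCR Cont. The heat response was 0.87 ± 0.04 (SE) in SCR, or 1.82-fold, 0.09 ± 0.04 in HSF1-KD, which did not pass the test (limma, adjusted p = 0.152), and 0.35 ± 0.04 in SSBP1-KD, or 1.28-fold. On the log2 scale the response in SSBP1-KD was thus 40.7% of that in SCR, and the response in HSF1-KD 10.1%. These shares depend on the Cont level as well as on the HS level. Hsp90aa1 in SSBP1-KD differed from SCR by 0.28 in Cont and by -0.24 in HS. In HSF1-KD it differed from SCR by 0.09 in Cont and by -0.69 in HS.

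The log2 signals of Ahsa1 in SCR were 10.50, 10.49 and 10.39 in Cont and 11.19, 11.20 and 11.15 in HS. In HSF1-KD they were 10.50, 10.60 and 10.46 in Cont and 10.69, 10.65 and 10.63 in HS. In SSBP1-KD they were 10.74, 10.83 and 10.77 in Cont and 11.17, 11.03 and 11.12 in HS. Ahsa1 thus had the same order of group means as Hsp90aa1, but SCR HS overlapped SSBP1-KD HS and the Cont groups of HSF1-KD and SCR overlapped. Its heat response was 0.73 ± 0.05 in SCR, or 1.66-fold, 0.14 ± 0.05 in HSF1-KD (limma, adjusted p = 0.0596) and 0.33 ± 0.05 in SSBP1-KD, or 1.25-fold. The response in SSBP1-KD was 44.8% of that in SCR, close to the share for Hsp90aa1. Ahsa1 in SSBP1-KD differed from SCR by 0.32 in Cont and by -0.08 in HS, so the smaller response went mostly with a higher Cont level.

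The log2 signals of Fkbp4 in SCR were 10.32, 10.30 and 10.24 in Cont and 10.90, 10.96 and 10.95 in HS. In HSF1-KD they were 10.02, 10.06 and 10.04 in Cont and 10.09, 10.04 and 9.95 in HS. In SSBP1-KD they were 10.16, 10.15 and 10.20 in Cont and 10.43, 10.35 and 10.40 in HS. Both Cont groups of knocked-down cells lay below every SCR Cont array, and heated SSBP1-KD cells lay between both SCR groups. The heat response was 0.65 ± 0.04 in SCR, or 1.57-fold, -0.01 ± 0.04 in HSF1-KD (limma, adjusted p = 0.912) and 0.23 ± 0.04 in SSBP1-KD, or 1.17-fold. Hsp90aa1, Ahsa1 and Fkbp4 were also the 3 members that rose over 1.5-fold in SCR at an unadjusted p under 0.05, as 0.602% of all genes did.

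**Figure D2:**
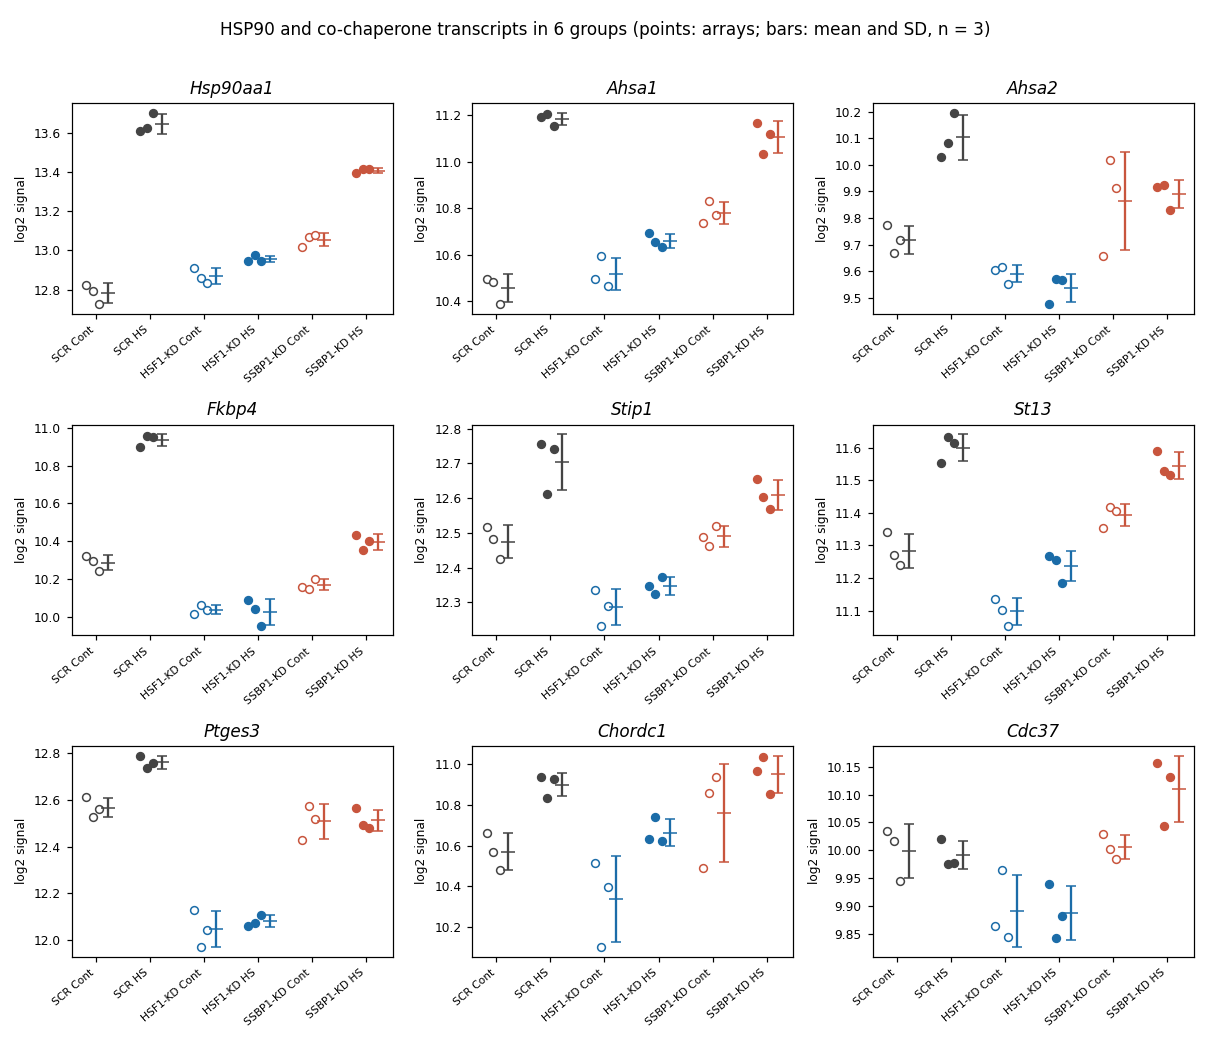
log2 signal of the 9 measured members (1 panel each, with its own axis range) in the 6 groups; points are arrays (open Cont, filled HS) and bars are means with SD of 3 arrays. For Hsp90aa1 the arrays run from 12.72 in SCR Cont to 13.70 in SCR HS with no overlap between neighbouring groups, while for Chordc1 every neighbouring pair of groups overlaps.

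Ahsa2, a relative of Ahsa1, rose by 0.38 ± 0.07 in SCR (limma, adjusted p = 0.00237). Its log2 signals there were 9.77, 9.67 and 9.72 in Cont and 10.03, 10.08 and 10.20 in HS. Its heat response was -0.05 ± 0.07 in HSF1-KD against 0.03 ± 0.07 in SSBP1-KD. Neither passed the test. The SSBP1-KD Cont arrays spread from 9.66 to 10.02, the lowest being array 1, the array that stood apart. RefSeq places the Ahsa2 gene partly over Usp34, and the share of Usp34 transcripts in its signal was not tested.

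St13, and Stip1, whose protein carries substrates from HSP70 to HSP90, rose less. The arrays of St13 ran from 11.24 to 11.34 in SCR Cont and from 11.55 to 11.63 in SCR HS, a rise of 0.32 ± 0.04 (limma, adjusted p = 1.46e-04). St13 was the 1 member that rose after heat shock in all 3 kinds of cells, by 0.14 ± 0.04 in HSF1-KD (adjusted p = 0.0341) and by 0.15 ± 0.04 in SSBP1-KD (adjusted p = 0.0419). Both of these small rises were lost under several other settings, with adjusted p-values of up to 0.128 in HSF1-KD and 0.239 in SSBP1-KD. Stip1 ran from 12.42 to 12.52 in SCR Cont and from 12.61 to 12.76 in SCR HS, a rise of 0.23 ± 0.05 (adjusted p = 0.00359), against 0.06 ± 0.05 in HSF1-KD and 0.12 ± 0.05 in SSBP1-KD, which did not pass the test. The rise of Stip1 in SCR was lost with the test that the study's methods name, adjusted over all probe sets (adjusted p = 0.0862).

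Ptges3, also called p23, which stabilizes the closed form of HSP90, rose by 0.19 ± 0.05 in SCR (limma, adjusted p = 0.0134). Its log2 signals in SCR were 12.61, 12.53 and 12.56 in Cont and 12.79, 12.74 and 12.76 in HS. In HSF1-KD they were 12.13, 11.97 and 12.04 in Cont and 12.06, 12.07 and 12.11 in HS, and in SSBP1-KD 12.43, 12.57 and 12.52 in Cont and 12.56, 12.49 and 12.48 in HS. Every HSF1-KD array, heated or not, lay below every array of the other 4 groups. The heat response was 0.03 ± 0.05 in HSF1-KD and 0.00 ± 0.05 in SSBP1-KD. Without array 2 of SCR Cont the rise in SCR no longer passed the test (adjusted p = 0.0609).

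Chordc1 and Cdc37 did not pass the test in SCR in the fit used here, and Chordc1 passed it under 4 of 16 other settings (limma, adjusted p down to 0.0101). The log2 signals of Chordc1, a zinc-binding co-chaperone, were 10.66, 10.57 and 10.48 in SCR Cont and 10.94, 10.84 and 10.93 in SCR HS, and these groups did not overlap. Its difference, 0.33 ± 0.11, had a standard error over 2 times that of Hsp90aa1 and an adjusted p of 0.0634 (limma), and its 95% confidence interval ran from 0.09 to 0.57. Chordc1 arrays ran from 10.10 to 10.52 in HSF1-KD Cont and from 10.62 to 10.74 in HSF1-KD HS, a difference of 0.33 ± 0.11 (adjusted p = 0.0546). They ran from 10.49 to 10.94 in SSBP1-KD Cont and from 10.85 to 11.04 in SSBP1-KD HS, a difference of 0.19 ± 0.11. Chordc1, whose promoter window held the 3-unit element, thus had nearly equal point estimates in SCR and HSF1-KD, with an interval for their difference from -0.35 to 0.34. This near equality depends on array 2 of HSF1-KD Cont, at 10.10 against 10.52 and 10.40 in arrays 1 and 3. Over other settings the HSF1-KD estimate ran from 0.21 to 0.42 and the SCR estimate from 0.29 to 0.38. Whether the element acts in these cells was not tested. RefSeq places predicted genes over part of Chordc1, and their share in its signal was not tested.

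Cdc37, the kinase-specific co-chaperone, differed by -0.01 ± 0.05 between HS and Cont in SCR, with a 95% confidence interval from -0.11 to 0.09. Its arrays ran from 9.94 to 10.03 in SCR Cont and from 9.98 to 10.02 in SCR HS. The whole range of its group means was 0.22, against 0.87 for Hsp90aa1 and 0.91 for Fkbp4. No comparison of Cdc37 passed the test in the fit used here.

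**Figure D3:**
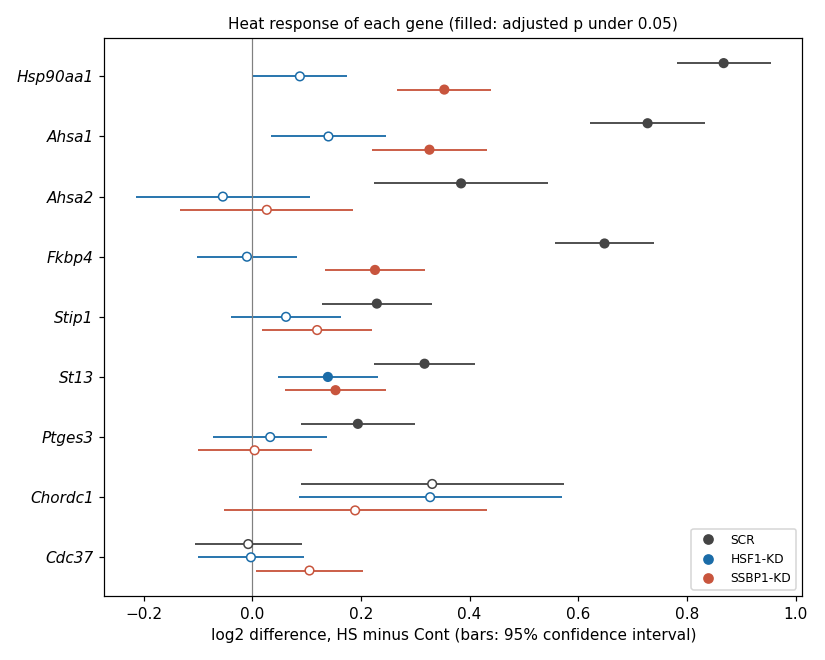
Heat response of the 9 measured members (log2 difference, HS minus Cont) in SCR, HSF1-KD and SSBP1-KD cells; bars are 95% confidence intervals and filled points passed the test. The filled SCR points run from 0.19 for Ptges3 to 0.87 for Hsp90aa1, and those of SSBP1-KD from 0.15 for St13 to 0.35 for Hsp90aa1.

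In HSF1-KD cells 1 member, St13, rose after heat shock, where 10.6% of all genes rose and 10.8% fell, so the members rose in about the same share as other genes. The median heat response of the members was 0.06 there. Of 16 other settings, St13 lost its call in HSF1-KD under 8. Chordc1 and Ahsa1 gained a call there under 5 and 4. In SSBP1-KD cells 4 members rose (Hsp90aa1, Ahsa1, Fkbp4 and St13) and none fell, where 4.08% of all genes rose and 2.82% fell, and the members' median was 0.15. With the compared arrays alone the calls for Ahsa1 and Fkbp4 in SSBP1-KD were lost (limma, adjusted p = 0.0645 and 0.108). They were also lost with the test that the study's methods name (adjusted p = 0.106 and 0.0894).

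The difference in heat response between kinds of cells was tested directly. For HSF1-KD against SCR, 3 members had a smaller response and none a larger one (Hsp90aa1, -0.78 ± 0.06, adjusted p = 2.58e-06; Fkbp4, -0.66 ± 0.06, adjusted p = 3.48e-05; Ahsa1, -0.59 ± 0.07, adjusted p = 6.38e-04; limma). Over all genes 0.336% had a smaller response and 0.01% a larger one. For SSBP1-KD against SCR the difference was -0.51 ± 0.06 for Hsp90aa1 (limma, adjusted p = 5.12e-04), -0.42 ± 0.06 for Fkbp4 (adjusted p = 0.00483) and -0.40 ± 0.07 for Ahsa1 (adjusted p = 0.0202), so 3 members had a smaller response and none a larger one. Over all genes 0.311% had a smaller and 0.181% a larger response in SSBP1-KD. Both contrasts use the same SCR arrays and are not independent of each other. The call for Ahsa1 in SSBP1-KD was lost under 8 of 22 other settings, with adjusted p-values of up to 0.0899.

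Of the remaining members, Ahsa2 had a difference of -0.44 for HSF1-KD and of -0.36 for SSBP1-KD, which did not pass the test (limma, adjusted p = 0.150 and 0.212). With array weights both passed (-0.46, adjusted p = 0.0223, and -0.49, adjusted p = 0.00990), with the compared arrays alone the former did (adjusted p = 0.0474), and without array 1 of SSBP1-KD Cont the latter did (-0.46, adjusted p = 0.0206). St13, Stip1 and Ptges3 had estimates from -0.19 to -0.11 in both contrasts. Set against each other, SSBP1-KD and HSF1-KD differed in the heat response of no member, where 0.291% of all genes had a larger and 0.0502% a smaller response in SSBP1-KD. The estimate was 0.27 for Hsp90aa1, with a 95% confidence interval from 0.14 to 0.39 (adjusted p = 0.0714), 0.24 for Fkbp4 (0.11 to 0.36, adjusted p = 0.123) and 0.19 for Ahsa1 (0.04 to 0.34, adjusted p = 0.315). These intervals lay above 0, and the call for Hsp90aa1 was made under 5 other settings.

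In HSF1-KD Cont cells 4 members were lower than in SCR Cont and none was higher, where 10.1% of all genes were lower and 10.9% higher. Ptges3 was lower by the largest amount, -0.52 ± 0.05 or 1.43-fold (limma, adjusted p = 5.82e-06), and Fkbp4 followed at -0.25 ± 0.04 (adjusted p = 8.67e-04). Stip1 and St13 were each lower by 0.19 in size (-0.19 ± 0.05, adjusted p = 0.0121, and -0.19 ± 0.04, adjusted p = 0.00776). Both calls were lost with the compared arrays alone (limma, adjusted p = 0.0738 and 0.0735). With the test that the study's methods name they were lost too (adjusted p = 0.0808 and 0.0766). The call for Stip1 was also lost with quantile normalization, and without array 1 of SCR Cont or array 2 of HSF1-KD Cont. Hsp90aa1 and Ahsa1 had estimates of 0.09 and 0.06, which did not pass the test. The members' median was -0.19, against 0.03 over all genes.

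In SSBP1-KD Cont cells the same HSP90 gene and its ATPase activator were higher than in SCR Cont. Hsp90aa1 was higher by 0.28 ± 0.04, or 1.21-fold (limma, adjusted p = 1.47e-04), and Ahsa1 by 0.32 ± 0.05, or 1.25-fold (adjusted p = 2.02e-04). No member was lower, and over all genes 14.6% were higher and 16.5% lower, so 2 of 9 is close to the background. Every SSBP1-KD Cont array of both genes lay above every SCR Cont array. Fkbp4 had an estimate of the opposite sign, -0.12 ± 0.04 (adjusted p = 0.0588), and was called lower under 5 other settings. Without array 1 of SSBP1-KD Cont, 4 members were higher, Ahsa2 at 0.25 (adjusted p = 0.00716) and Chordc1 at 0.33 (adjusted p = 0.0279) besides Hsp90aa1 and Ahsa1.

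In heated cells 7 of the 9 members were lower in HSF1-KD than in SCR and none was higher, where 10.7% of all genes were lower and 13.1% higher. The members' median was -0.52 against 0.03 over all genes. Fkbp4 was 1.88-fold lower (-0.91 ± 0.04, limma, adjusted p = 4.30e-09), Hsp90aa1 1.61-fold lower (-0.69 ± 0.04, adjusted p = 3.40e-08) and Ptges3 1.60-fold lower (-0.68 ± 0.05, adjusted p = 2.83e-07). Ahsa2 (-0.57), Ahsa1 (-0.52), St13 (-0.36) and Stip1 (-0.36) were lower as well. Chordc1 (-0.24) and Cdc37 (-0.10) did not pass the test.

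Ptges3 and Fkbp4 were already lower in HSF1-KD before heat, and Hsp90aa1 was not. The difference of Ptges3 between HSF1-KD and SCR was -0.52 in Cont and -0.68 in HS, and the change between them, -0.16 ± 0.07, did not pass the test (adjusted p = 0.571). For Fkbp4 it was -0.25 in Cont and -0.91 in HS, and for Hsp90aa1 0.09 in Cont and -0.69 in HS.

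SSBP1-KD cells after heat shock had 3 members below SCR and none above, where 14.4% of all genes were lower and 14.3% higher. These were Fkbp4, 1.45-fold lower (-0.54 ± 0.04, limma, adjusted p = 8.15e-07), Ptges3, 1.19-fold lower (-0.25 ± 0.05, adjusted p = 0.00163), and Hsp90aa1, 1.18-fold lower (-0.24 ± 0.04, adjusted p = 5.01e-04). Ahsa1, whose heat response was smaller in SSBP1-KD than in SCR, had an estimate of -0.08 ± 0.05 between the heated groups (limma, adjusted p = 0.330), and its level in SSBP1-KD Cont had been the higher one. Ahsa2 had an estimate of -0.21 ± 0.07 (limma, adjusted p = 0.0534), its arrays did not overlap those of SCR HS, and it was called lower under 5 other settings. Cdc37 had an estimate of 0.12 ± 0.05 (adjusted p = 0.0796) and was called higher under 4 other settings. All knockdown differences in 1 condition were taken against the same SCR arrays.

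**Figure D4:**
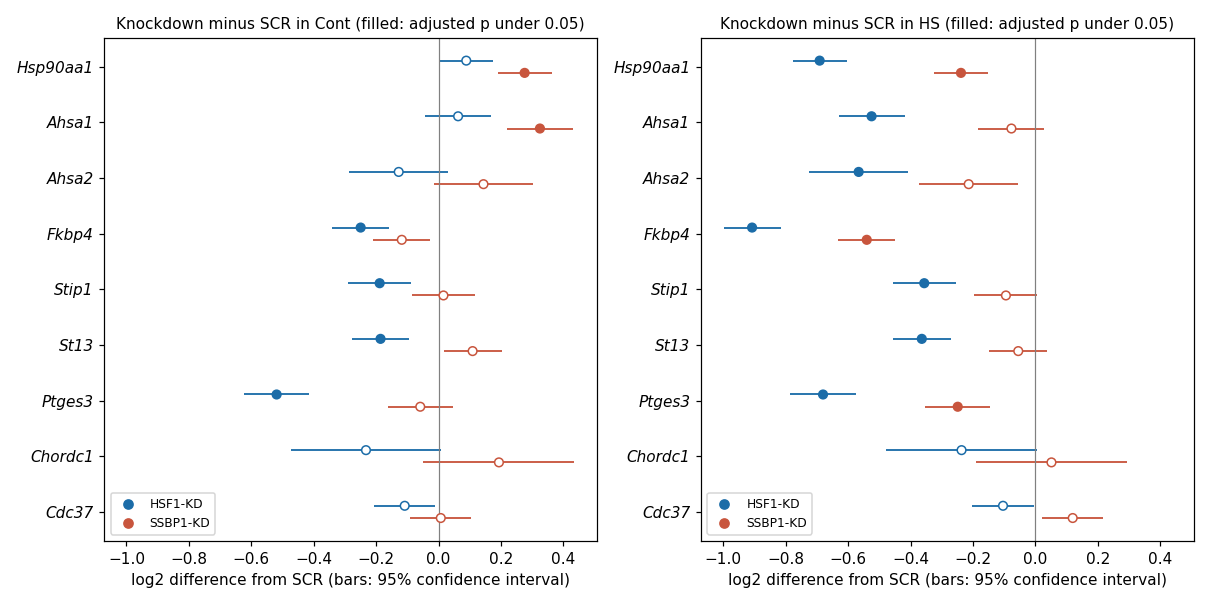
Difference of HSF1-KD and SSBP1-KD cells from SCR cells (log2) for the 9 measured members in Cont (left) and HS (right); bars are 95% confidence intervals and filled points passed the test. In HS the HSF1-KD points run from -0.91 for Fkbp4 to -0.10 for Cdc37, and in Cont Ahsa1 and Hsp90aa1 are the filled SSBP1-KD points, at 0.32 and 0.28.

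Hsp90aa1 and Ptges3 each had 3 probe sets that carried only their symbol. The heat response of Hsp90aa1 in SCR was 0.87, 0.81 and 0.83 on these probe sets. The difference of that response was -0.78, -0.73 and -0.70 in HSF1-KD, and -0.51, -0.46 and -0.46 in SSBP1-KD. Between HSF1-KD Cont and SCR Cont, Hsp90aa1 differed by 0.09, 0.07 and 0.02, and none passed the test. The separation of all its neighbouring groups given above is that of the brightest probe set. The difference of Ptges3 between HSF1-KD and SCR in Cont was -0.52, -0.49 and -0.55. Its difference of heat response for SSBP1-KD against SCR was -0.19, -0.32 and -0.16 on the same probe sets, and none passed the test. The other probe sets gave 40 values, and 0 of them changed a call. The annotation gives no position for the probe sets, so near-identical copies of a gene cannot be told apart, and the probe sets of 1 gene are not independent samples.

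Across the 18 arrays, Hsp90aa1 and Ahsa1 varied most alike of all pairs of members (Pearson r = 0.97), and Fkbp4 and Cdc37 least alike (r = 0.43). Of 3590 genes whose group means spanned at least 0.5 on the log2 scale, the 5 most like Hsp90aa1 were Uspl1 (r = 0.989), Hsph1 (r = 0.986), Dnajb4 (r = 0.983), Phlda1 (r = 0.978) and Dnaja4 (r = 0.971). These values describe 18 arrays that share 6 groups, and since the genes were chosen on the same arrays their changes are given as a description. Hsph1, an HSP110 exchange factor of HSP70, rose by 2.44 in SCR, 0.17 in HSF1-KD (which did not pass the test) and 1.32 in SSBP1-KD. Dnajb4 and Dnaja4, HSP40 partners of HSP70, rose by 1.48 and 1.63 in SCR and by 0.38 and 0.73 in SSBP1-KD. All 5 were, like Hsp90aa1, higher in SSBP1-KD Cont than in SCR Cont, by 0.36 (Dnaja4) to 0.56 (Uspl1). The HSP70 gene Hspa1a had an estimate of 0.18 there (adjusted p = 0.0603), and its mean log2 signal went from 8.53 to 12.85 in SCR, from 8.58 to 9.14 in HSF1-KD and from 8.71 to 12.13 in SSBP1-KD.

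Of 30 further HSP90 genes and co-chaperones 29 were measured, and 2 rose and 2 fell in SCR, with a median of -0.01. These counts were near the shares over all genes given above. Cacybp, which binds SIAH1 and carries a domain like that of co-chaperone SUGT1, rose by 0.52 ± 0.08 (limma, adjusted p = 3.66e-04), and Fnip1, a partner of folliculin that slows the HSP90 ATPase, rose by 0.41 ± 0.06 (adjusted p = 2.39e-04). Fkbpl, an immunophilin-like protein, fell by 0.33 (adjusted p = 2.76e-04) and Ttc4, a tetratricopeptide co-chaperone, by 0.30 (adjusted p = 0.00158). No difference in heat response between kinds of cells passed the test for any of the 29.

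The HSP90 paralogues of other compartments did not follow Hsp90aa1. The mean log2 signal of Hsp90b1, the HSP90 of the endoplasmic reticulum, was 13.10 in SCR Cont and 13.06 in SCR HS, and that of Trap1, the mitochondrial HSP90, was 10.98 and 10.94. Their heat differences in SCR were -0.04 ± 0.04 and -0.05 ± 0.04, with 95% confidence intervals from -0.13 to 0.05 and from -0.13 to 0.04. Hsp90b1 was lower in SSBP1-KD than in SCR, by 0.21 in size in Cont (-0.21, adjusted p = 0.00159) and in HS (-0.26, adjusted p = 2.84e-04), a direction opposite to that of Hsp90aa1 in Cont. Trap1 passed no test.

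**Figure D5:**
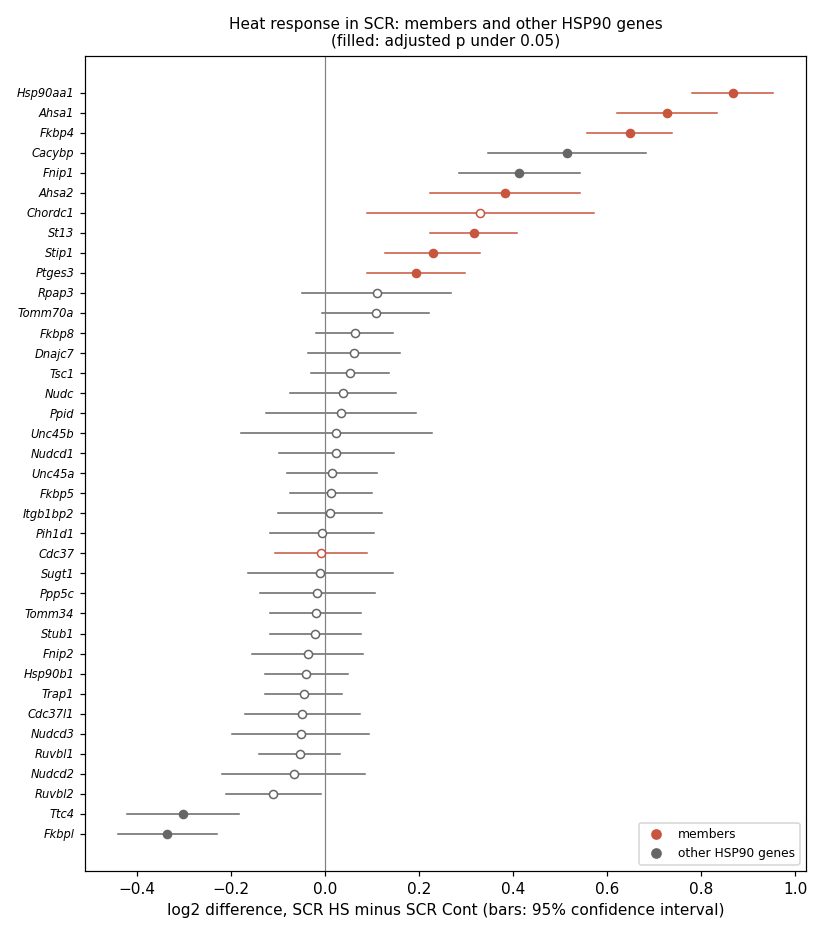
Heat response in SCR cells (log2 difference, HS minus Cont) of the 9 measured members and of 29 further HSP90 genes and co-chaperones, ordered by size; bars are 95% confidence intervals and filled points passed the test. The filled points run from -0.33 (Fkbpl) to 0.87 (Hsp90aa1), and 7 of the 9 filled points above 0 are members.

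In SSBP1-KD Cont 7 of the 29 were higher and 4 lower than in SCR, where 14.6% of all genes were higher and 16.5% lower. In SSBP1-KD HS 10 were higher and 3 lower, where 14.3% and 14.4% of all genes were. In HSF1-KD Cont 3 were higher and 2 lower, where 10.9% and 10.1% of all genes were. In HSF1-KD HS 5 were higher and 3 lower, where 13.1% and 10.7% of all genes were. Fnip1 was higher in SSBP1-KD by 0.67 in Cont (limma, adjusted p = 2.11e-06) and by 0.43 in HS (adjusted p = 9.85e-05). Its partner gene Fnip2 was higher in both knockdowns, by 0.31 in HSF1-KD Cont (adjusted p = 0.00116) and by 0.27 in SSBP1-KD Cont (adjusted p = 0.00230). Ttc4 was lower in HSF1-KD (-0.36 in Cont, adjusted p = 3.53e-04, and -0.39 in HS, adjusted p = 1.58e-04) but higher in SSBP1-KD after heat shock (0.38, adjusted p = 1.67e-04). In HSF1-KD HS Cacybp was lower (-0.41, adjusted p = 0.00168), as 7 of the 9 members were.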

How the data were processed

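Total RNA (200 ng per sample) of 18 samples was hybridized to Affymetrix Mouse Gene 1.0 ST arrays. Per the labels' processing notes the authors used RMA and Partek 6.5, and the deposited values are log2 signals of 35557 probe sets, already background-corrected and normalized between arrays. The build behind the annotation is not given in the sources used here. Of the probe sets, 21789 carried 1 gene symbol, 1621 several and 12147 none in the platform table, and 0 columns were left unused.

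A linear model with a mean for each group was fitted to every probe set over all 18 arrays (limma 3.58.1, R 4.3.3, 12 residual degrees of freedom). Contrasts gave 3 heat responses, 4 knockdown differences and 3 differences of heat response. Benjamini-Hochberg adjustment ran over all probe sets, and a gene was called at an adjusted p under 0.05. Errors are standard errors of the fit, and intervals are 95%. The number of arrays limits the precision. The fit was tested on simulated data. Every member is named, from further lists genes among those with the largest called changes, the HSP90 paralogues of other compartments, and the 5 genes most like Hsp90aa1. The members and lists were chosen with earlier results of these data known. Labels give replicate numbers 1 to 3 in every group, and 6 of 45 same-numbered pairs of arrays had deviations correlated over 0.1, so the numbers were not taken as pairs. Alternatives changed the scaling, the probe sets, the prior, the arrays and the test (the methods' Student test). Promoter sequences came from RefSeq (GRCm38.p6).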

Additional observations from a re-analysis of the deposited data

Results flagged for a closer look

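The heat response of 3 members differed between kinds of cells by a direct test of that difference (limma, 3 arrays per group). For Hsp90aa1 it was smaller than in SCR by -0.78 in HSF1-KD and by -0.51 in SSBP1-KD. For Ahsa1 the differences were -0.59 and -0.40, and for Fkbp4 -0.66 and -0.42. In SSBP1-KD the Cont levels of Hsp90aa1 and Ahsa1 were above SCR, by 0.28 and 0.32. The HS level of Ahsa1 there did not pass the test against SCR (-0.08, limma, adjusted p = 0.330). The call for the Ahsa1 response in SSBP1-KD was lost under 8 of 22 other settings. The SCR arrays are shared by both contrasts of each gene.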

How the results depend on the processing

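Of 90 member results, 67 kept their call under every alternative, and over 1642 alternatives 0 reversed a called direction, 38 lost a call and 47 gained one. The counts of called members moved as follows, and the cause was not tested. For heat in HSF1-KD (1 member called) the count was 0 after array medians were set to 1 value, after quantile normalization, with the compared arrays alone and with the methods' test; it was 2 with 1-symbol probe sets only, and 3 with the brighter probe sets, a trended and robust prior or array weights. Leaving out 1 array gave 0 to 2. For heat in SSBP1-KD (4) it was 1 with the compared arrays alone or the methods' test, and for HSF1-KD against SCR in Cont (4) it was 2 under both. For SSBP1-KD against SCR in Cont (2) it was 4 with the brighter probe sets or the trended prior (3 higher, 1 lower), 6 with array weights (5 higher, 1 lower), and 2 to 4 without 1 array (4 without SSBP1-KD Cont array 1). For SSBP1-KD against SCR in HS (3) it was 5 with the brighter probe sets or array weights (1 higher, 4 lower). For the heat response in SSBP1-KD against HSF1-KD (0) it was 2 with the brighter probe sets and 1 with 1-symbol probe sets, the trended prior, array weights or the methods' test. For the heat response in SSBP1-KD against SCR (3), leaving out 1 array gave 2 to 4. At the methods' fold and unadjusted p the counts were 3 for heat in SCR and for HSF1-KD against SCR in HS, and 0 for heat in either knockdown, both knockdowns in Cont, SSBP1-KD in HS and the SSBP1-KD heat response. With the replicate block, 1 of 90 calls changed, St13 after heat shock in SSBP1-KD (adjusted p = 0.0526, limma), and the counts were 7 for heat in SCR, 1 in HSF1-KD and 3 in SSBP1-KD; 6 of 18 arrays correlated best with their own number. The other probe sets of Hsp90aa1 and Ptges3 were added after seeing the data.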

Other observations

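Proteins that depend on HSP90 for folding were examined as transcripts. Of 17 client genes 13 were measured, and no difference in heat response between kinds of cells passed the test for any of them (limma). In SCR 4 rose after heat shock and 2 fell, where 7.63% of all genes rose and 8.34% fell. Ahr, the aryl hydrocarbon receptor, rose by 0.32 (adjusted p = 0.00121) and Nr3c1, the glucocorticoid receptor, by 0.32 (adjusted p = 0.00679).

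In HSF1-KD 1 client was higher and 3 lower than SCR in Cont, where 10.9% of all genes were higher and 10.1% lower, and 0 were higher and 5 lower in HS, where 13.1% and 10.7% were. In SSBP1-KD 1 was higher and 5 lower in Cont, where 14.6% of all genes were higher and 16.5% lower, and 1 was higher and 5 lower in HS, where 14.3% and 14.4% were. Met, the hepatocyte growth factor receptor, was lower in SSBP1-KD by -0.83 in Cont (limma, adjusted p = 2.00e-07) and by -0.61 in HS (adjusted p = 2.17e-06). Ahr had a mean log2 signal of 10.31 in SCR Cont, 9.67 in HSF1-KD Cont and 9.81 in SSBP1-KD Cont, differences of -0.64 (adjusted p = 3.66e-06) and -0.50 (adjusted p = 1.93e-05), and the differences in HS were -0.77 and -0.73. Egfr, the epidermal growth factor receptor, was lower in SSBP1-KD by -0.58 in Cont (adjusted p = 4.33e-07) and by -0.62 in HS (adjusted p = 2.95e-07). Akt1, a protein kinase, was the client higher in SSBP1-KD, by 0.15 in Cont (adjusted p = 0.0082) and 0.25 in HS (adjusted p = 2.23e-04), and it was lower in HSF1-KD Cont (-0.31, adjusted p = 5.75e-05).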
